A study of Mus musculus with 12 samples.

Results

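Genes of vesicle and endosome trafficking were followed in mouse liver of animals given bulaquine, an antimalarial that the body turns into primaquine, and of animals given vehicle. They were chosen by symbol: spots annotated with 1 gene whose symbol begins Rab, Arf, Vps, Snx or Sec and a digit, or Cop followed by a, b, e, g or z, together with Arcn1. The array held 192 such spots for 120 genes, and the 104 spots of 80 genes with signal above local background in both dyes on all 12 arrays were measured, out of 11749 such spots on the whole array. Each array set liver RNA of bulaquine-treated mice against liver RNA of vehicle-treated mice in the other dye, and livers taken 6 h, 12 h or 24 h after dosing were compared on 4 arrays a time. Arrays F1 and F2 carried the drug sample in Cy5, and arrays R1 and R2 carried it in Cy3. The series' design text gives 4 mice in a group. Dose, strain, sex and age are not given in the sources used here, nor whether arrays or time points shared animals, so the p-values rest on array-to-array spread, part of which can be technical. A log2 ratio is that of bulaquine over vehicle with its standard error (SE) from a limma fit over all 12 arrays, and a spot was called where its p, adjusted over all 11749 spots by Benjamini and Hochberg, was under 0.05.

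Proteins move between membrane compartments in vesicles that a coat shapes, a Rab GTPase addresses and SNARE proteins fuse. COPII coats carry cargo from the endoplasmic reticulum (ER) to the Golgi, COPI coats recruited by ARF GTPases carry it back, and the retromer, sorting nexins and ESCRT complexes sort what has reached the endosome. Hepatocytes use the outward path to secrete plasma proteins and lipoproteins and the endosomal path to clear them from blood. Chloroquine, another quinoline antimalarial, is known for collecting in acidic endosomes and lysosomes. Some members are here by name alone: Sec61, Sec62 and Sec63 form the ER translocon, Sec11c is a signal peptidase subunit, the Sec14-like proteins bind lipids, and Vps72 is a chromatin protein.

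The members' promoters were searched for short motifs, which the choice by symbol did not use. RefSeq promoters of build GRCm38.p6, from 250 bases before to 50 after a gene's start, were found for 95 of the 120 genes. The palindrome TCACGTGA, the core of the CLEAR element bound by TFEB, a regulator of lysosomal genes, stood in the promoters of 7 of these genes (7.37%) against 1.41% of 17491 protein-coding genes and 1.12% of all 27025 genes in the table. TGACGTGG, the element of the unfolded protein response that XBP1 and ATF6 are known to bind, stood on either strand in 4 (4.21%) against 0.823% and 0.714%. No member gene carried both motifs, though they share the letters ACGTG. TCACGTGA also contains CACGTG, the E-box, which stood in 14.7% of the members and 8.91% of protein-coding genes. Most members carried neither TCACGTGA nor TGACGTGG. Both come from a search of 11 motifs made after the ratios were known, and no enrichment was tested. The promoters were also richer in G and C, at a median of 63.3% against 56.3% for protein-coding genes, and the GC box GGGCGG stood in 75.8% against 49.2%. Of the others, GTCACGTG stood in 10.5% against 3.19%, CCGGAAGT in 10.5% against 5.69%, TGACGTCA in 3.16% against 2.54% and CCAAT in 34.7% against 42.3%. The NRF1 motif and both ER stress response elements, ERSE and ERSE-II, stood in 0 of the 95 genes.

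The TCACGTGA sites of genes with a measured spot are shown because this motif's share stood above that of protein-coding genes by the largest factor among the 11 searched. Each window runs 5′ to 3′ on the gene's own strand, with the motif in capitals and 11 bases on each side.
Rab5a: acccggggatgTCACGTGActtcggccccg
Rab24: cggcgcccgcgTCACGTGAccgggcgtccc
Vps16: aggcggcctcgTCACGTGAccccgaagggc
Vps26a: atggcctacggTCACGTGAcgggcggcggg
Vps26a, other promoter: cgcacggctcgTCACGTGAcaactagctct
Sec23ip: gaccgaggctgTCACGTGAtaggcttgggt
Sec62: gttgtgaggtgTCACGTGAggagcggacat
In build GRCm38.p6 these windows lie at chr17:53479127-53479156 on the plus strand (Rab5a), chr13:55321961-55321990 minus (Rab24), chr2:130424290-130424319 plus (Vps16), chr10:62486732-62486761 and chr10:62486970-62486999 minus (Vps26a), chr7:128744805-128744834 plus (Sec23ip) and chr3:30792832-30792861 plus (Sec62). The motif began 96 bases before the start in Rab5a, 54 in Sec23ip, 33 in Sec62, 19 in Vps16, 152 and 183 in Vps26a, and 1 base after it in Rab24.

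The TGACGTGG sites are shown for the carriers that had a measured spot, which leaves out Sec24d.
Arf1: gcggcaggcgcTGACGTGGctgccgtcagc
Copb2: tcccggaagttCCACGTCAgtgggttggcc
Sec23a: ctcctccccttTGACGTGGcagaggcggca
They lie at chr11:59228228-59228257 minus (Arf1), chr9:98563713-98563742 plus (Copb2) and chr12:59011993-59012022 minus (Sec23a), and the capitals of Copb2 are the motif read on the opposite strand. The 7 measured spots of genes with TCACGTGA had median log2 ratios of -0.08, 0.11 and -0.14 at 6 h, 12 h and 24 h, and ran from -0.83 to 0.66 over the 3 times. The 4 spots of genes with TGACGTGG had medians of -0.21, -0.14 and 0.20. Of these 11 spots, 0 were called at any time, and Rab24 at 24 h had an unadjusted p under 0.05. A motif match describes the sequence and does not show that a factor binds there.

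No trafficking spot passed the test at any time point. At 6 h 0 of 104 were called, where 0.102% of all spots were. At 12 h the count was 0 against 0.46%, and at 24 h 0 against 0.477%. It was 0 as well for 12 h minus 6 h (0.4% of all spots called), 24 h minus 12 h (0.179%), 24 h minus 6 h (0.187%) and for the joint limma test over the 3 time points (0.826%). With shares this low, 104 spots would hold under 1 call at the array-wide rate. The members' median log2 ratio was 0.01 at 6 h, 0.01 at 12 h and 0.02 at 24 h, beside -0.0006, -0.01 and 0.01 for all spots. At the 3 times 54, 57 and 56 of the 104 spots stood above 0. Over single arrays the members' median lay between -0.07 and 0.03 at 6 h, between -0.06 and 0.08 at 12 h and between -0.01 and 0.06 at 24 h. RNA came from whole liver, in which fewer cells of a type and less RNA per cell cannot be told apart.

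At an unadjusted p under 0.05, which keeps no control over the number of spots tested, the members' counts stood beside the array-wide rates as follows. At 6 h 2 spots were higher (1.92%, against 3.12% of all spots) and 2 lower (1.92% against 3.24%). At 12 h 5 were higher (4.81% against 4.76%) and 5 lower (4.81% against 3.84%). At 24 h 4 were higher (3.85% against 5.93%) and 9 lower (8.65% against 7.13%). Between time points, 5 members differed at that level for 12 h minus 6 h (4.81% against 6.57%), 3 for 24 h minus 12 h (2.88% against 8.92%) and 8 for 24 h minus 6 h (7.69% against 9.62%). In the joint test the count was 8 (7.69% against 11%). The difference between the dyes, in contrast, was called for 35 of the 104 spots (33.7%, against 28.9% of all spots). Spots of 1 sign on all 4 arrays numbered 20, 19 and 23 at the 3 times (19.2%, 18.3% and 22.1%), beside 18.0%, 18.7% and 22.7% of all spots.

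**Figure D1:**
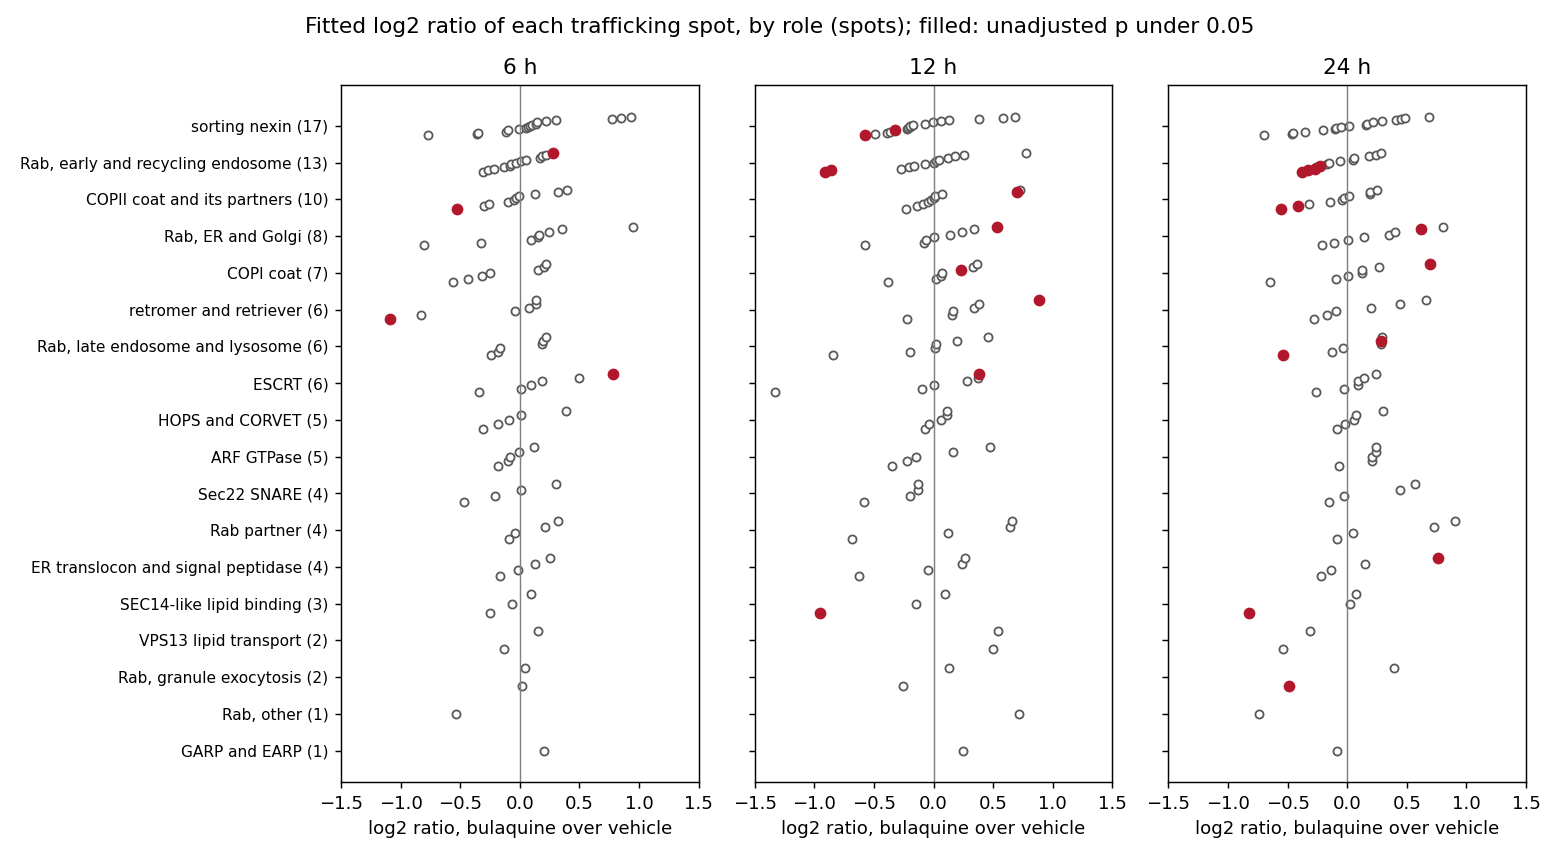
Fitted log2 ratio of bulaquine over vehicle (x axis) for each of the 104 trafficking spots, 1 point a spot, grouped by role (y axis, number of spots in brackets) at 6 h, 12 h and 24 h. Filled points have an unadjusted p under 0.05, and 0 spots passed after adjustment; the values ran from -1.09 to 0.95 at 6 h, -1.33 to 0.88 at 12 h and -0.83 to 0.91 at 24 h.

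The intervals show how large a change the arrays left room for. The SE of a member's log2 ratio had a median of 0.25 and ran from 0.09 to 0.93, and a 95% interval reached 0.55 to either side at the median. The interval lay wholly within a 2-fold change in either direction for 76 of 104 spots at 6 h (73.1%), 67 at 12 h (64.4%) and 74 at 24 h (71.2%), against 68.4%, 67.2% and 67.1% of all spots. It lay there at all 3 times for 57 spots (54.8%, against 57.0%). Within 1.5-fold at all 3 times stood 28 (26.9%, against 28.5%). For the remaining spots a 2-fold change at some time was not detectable or not bounded at this precision. The brighter 52 spots had a median SE of 0.16 and the dimmer 52 a median of 0.31, with ranges that overlapped. The median signal-to-noise score was 2.11 for the members and 2.50 for all spots.

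**Figure D2:**
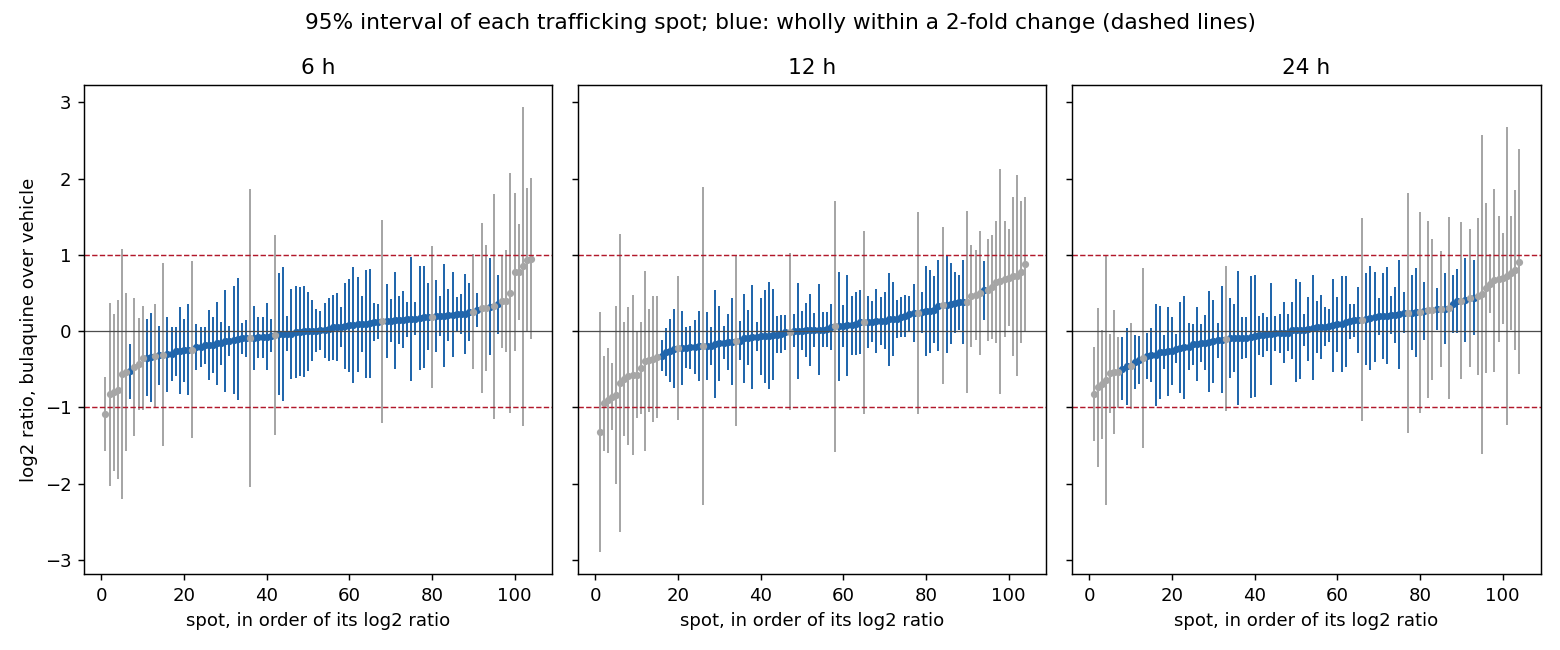
Log2 ratio with its 95% interval (y axis) for the 104 trafficking spots in order of their ratio (x axis) at 6 h, 12 h and 24 h. Blue intervals lie wholly within a 2-fold change, marked by the dashed lines, which held for 76, 67 and 74 spots.

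Retromer genes held the member with the smallest p. Vps26b, a subunit of the retromer that returns receptors from endosomes to the Golgi and the cell surface, read -1.45, -0.40, -1.45 and -1.05 on arrays F1, F2, R1 and R2 at 6 h. It read 0.14, 0.35, 0.07 and 0.07 at 12 h, and 0.72, -0.33, 0.49 and 0.88 at 24 h. The spot was thus lower on every 6 h array than on any later one. The fitted ratio was -1.09 (SE 0.22) at 6 h, 2.13-fold lower than vehicle, with a 95% interval of -1.58 to -0.60 and an adjusted p of 0.20. It was 0.16 at 12 h and 0.44 at 24 h, and 24 h minus 6 h came to 1.53 (SE 0.31, adjusted p = 0.130). It was among the brightest members, with a signal-to-noise score of 29.1, and its dye effect was -1.03. Computed without background correction, the 6 h value of -1.01 passed (adjusted p = 0.0213). Vps26b has 1 measured spot, so no other spot bears on its name or value.

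Vps26a, the related subunit, read -0.83, 0.38 and 0.66 (SE 0.54) at the 3 times on its dim spot, the same order of times as for Vps26b, with 95% intervals that included 0 at each time. Its brighter spot read 0.13, -0.23 and -0.17 (SE 0.22). Vps29, common to both complexes, read 0.14, 0.34 and 0.20 at the 3 times. Vps26c of the retriever, which sends integrins and other cargo back to the surface, read 0.67, 1.14, 0.82 and 0.89 on the 12 h arrays. Its fitted ratio there was 0.88 (SE 0.39, adjusted p = 0.580), and it was -0.04 at 6 h and -0.09 at 24 h. Vps35l, its partner, read 0.07, 0.15 and -0.28.

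Among sorting nexins, phosphoinositide-binding proteins of the endosome, 17 spots of 13 genes were measured, with medians of 0.08, -0.19 and 0.01. At 12 h 12 of the 17 spots lay below 0, and 2 of them had an unadjusted p under 0.05. Of all spots, 47.8% lay above 0 at that time and 3.84% were lower at that level. Snx21 on its brighter spot read -0.20, -0.43, -0.45 and -0.20 on the 12 h arrays, for a ratio of -0.32 (SE 0.09, adjusted p = 0.355), and its other spot read -0.17. Snx9, which acts at clathrin-coated pits, read -0.57 (SE 0.25) at 12 h on 1 spot and 0.58 (SE 0.31) on the other. The SNX-BAR proteins that work with the retromer gave -0.49 (Snx6, SE 0.27), -0.39 (Snx2, SE 0.53), 0.06 (Snx1, SE 0.32), and -0.21 (SE 0.13) and 0.38 (SE 0.25) on the spots of Snx5. Snx4 read 0.68 (SE 0.37) at 24 h, higher on each of the 4 arrays. Snx3, bright at a signal-to-noise score of 16.1, read 0.05, -0.19 and -0.09. Snx17, which recycles LDL-receptor family members, had the widest interval of all members, with 1 array of 6 h at 5.08 and the others between -0.98 and -0.27.

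Early and recycling endosome Rabs gave 13 spots of 9 genes, with medians of -0.03, 0.01 and -0.15. At 24 h 8 of the 13 lay below 0 and 4 had an unadjusted p under 0.05, all of them lower. Of all spots, 50.9% lay above 0 at that time and 7.13% were lower at that level. Both spots of Rab11b were among the 4, and 0 of the 13 were called. Rab5c, which like Rab5a directs fusion of early endosomes, read 0.14, 0.13, 0.37 and 0.46 at 6 h and -0.28, -0.24, -0.20 and -0.37 at 24 h. The arrays of those times did not overlap, and the ratios were 0.28 (SE 0.10, adjusted p = 0.692) at 6 h and -0.27 (SE 0.10, adjusted p = 0.301) at 24 h. The difference of -0.55 (SE 0.14) had an adjusted p of 0.25. Rab5a, the brightest member with a signal-to-noise score of 152, read -0.08, 0.12 and -0.17 with an SE of 0.12, and with a normexp background correction its 24 h value turned to 0.47.

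Rab11b, a Rab of the recycling endosome, was the gene whose spots were both lower at 24 h with an unadjusted p under 0.05. The first spot read -0.28, -0.08, -0.34 and -0.62 on the 24 h arrays, and the second -0.21, -0.58, -0.22 and -0.51. All 8 values lay below 0, while over the 12 arrays the spots correlated at -0.06. The ratios were -0.33 (SE 0.13, adjusted p = 0.342) and -0.38 (SE 0.14, adjusted p = 0.308), or 1.26-fold and 1.30-fold lower. At 12 h the spots stood at 0.05 and -0.27. Rab11a, its close relative, read 0.19 (SE 0.26) at 24 h.

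Rab10, which in fat cells carries the glucose transporter GLUT4 to the surface, had 3 measured spots. The third read -0.94, -1.02, -1.13 and -0.35 at 12 h, all lower, for a ratio of -0.86 (SE 0.20, adjusted p = 0.194), the smallest adjusted p among members at that time. The first spot, whose signal-to-noise score was 42.0, gave -0.07 (SE 0.09) at 12 h and the second -0.16 (SE 0.22). The 12 h value therefore stood on 1 spot of the 3. At 24 h the first spot read -0.33, -0.29, -0.16 and -0.14, for -0.23 (SE 0.09, adjusted p = 0.308). Rab8a, which directs vesicles to the plasma membrane, read -1.66, -1.03, -0.10 and -0.83 at 12 h, for -0.91 (SE 0.31, adjusted p = 0.494), and with a normexp background correction it stood at 0.10. Rab14 and Rab15 kept within 0.22 of 0 on each of their spots at every time.

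Rab18, which is known for the ER and for lipid droplets, had fitted ratios above 0 on both of its spots at all times. Over the 12 arrays, however, the values of its spots correlated at 0.004. Its second spot read 0.13, 0.21, 0.37 and 0.69 at 6 h, 0.71, 0.78, 0.58 and 0.06 at 12 h, and 0.48, 0.69, 0.19 and 1.11 at 24 h. Every one of these 12 values lay above 0. The ratios were 0.35, 0.53 and 0.62 (SE 0.17), the last 1.54-fold with an adjusted p of 0.190, the smallest of any member at 24 h. The first spot gave 0.25, 0.24 and 0.35 (SE 0.17), with 10 of 12 arrays above 0, and an adjusted p of 0.419 at 24 h. Its 24 h arrays read 0.98, 0.31, 0.02 and 0.09, so the first array stood apart. The signal-to-noise score was 3.27 for the first spot and 2.15 for the second, beside a median of 2.11 for all members. Over the alternative fits, the second spot ran from 0.08 to 0.43 at 6 h and from 0.12 to 0.71 at 12 h. At 24 h it ran from 0.23 to 0.82. The Rab3GAP complex, which switches Rab18 on, was measured at low signal: Rab3gap1 read 0.32, 0.65 and 0.91 with an SE of 0.66, and Rab3gap2 -0.04, 0.64 and -0.08 with an SE of 0.36.

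**Figure D3:**
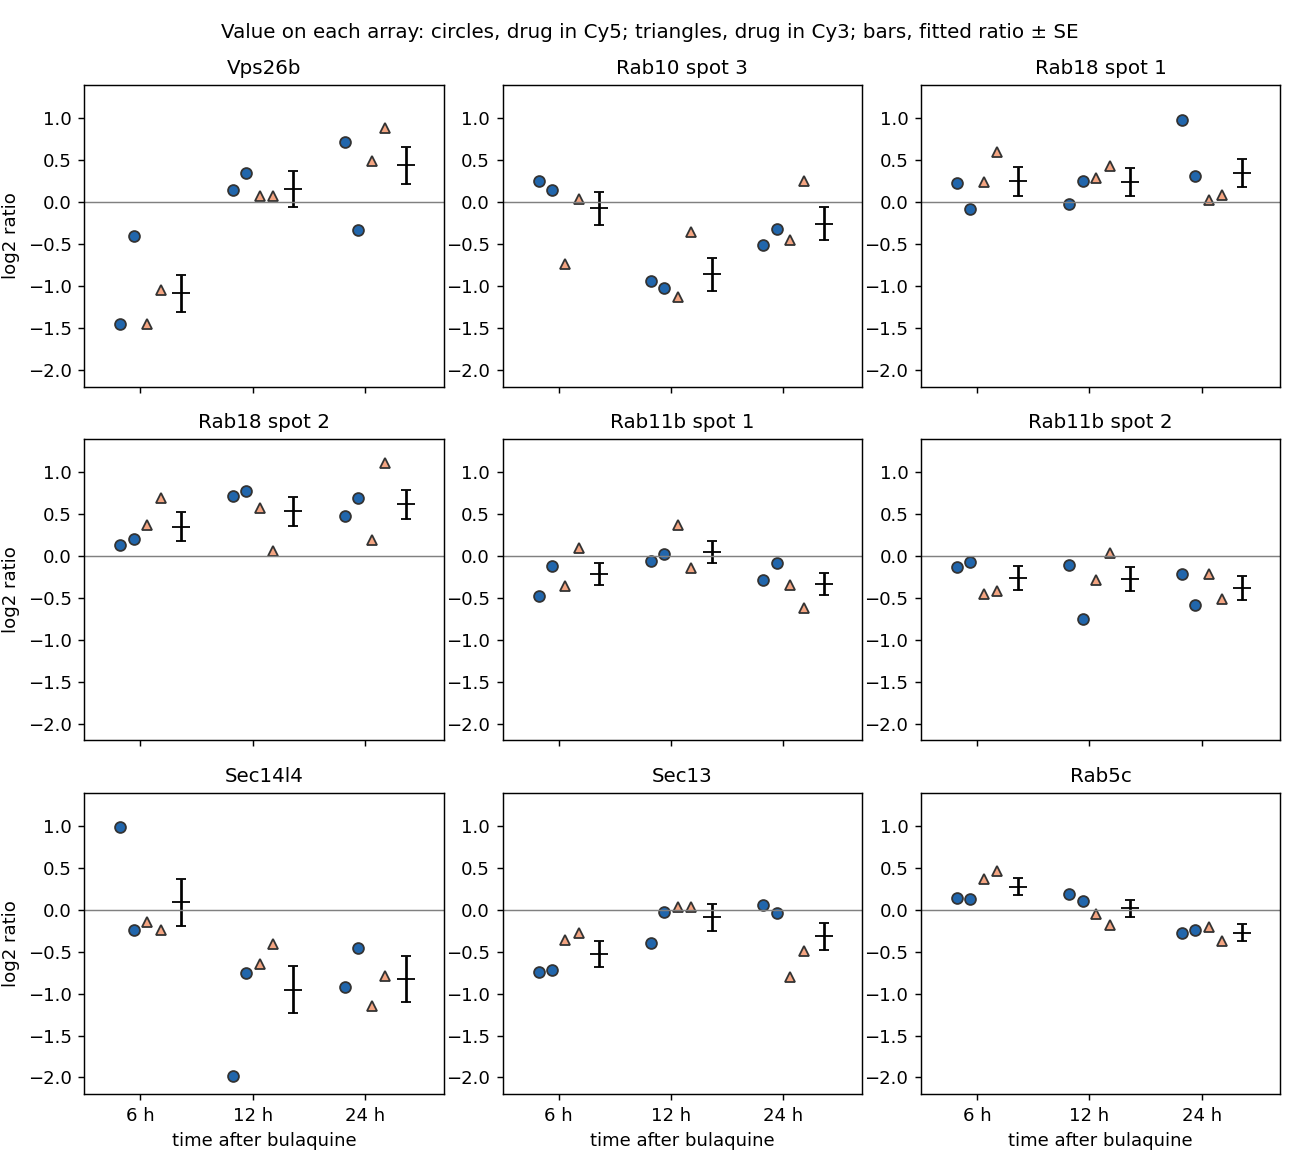
Log2 ratio of bulaquine over vehicle (y axis) on each array at 6 h, 12 h and 24 h (x axis) for 9 spots, after removal of the spot's dye effect. Circles are arrays with the drug in Cy5, triangles arrays with the drug in Cy3, and bars the fitted ratio with its SE; the Vps26b spot lay between -1.45 and -0.40 at 6 h, and all 12 values of the second Rab18 spot lay above 0.

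Of the other ER and Golgi Rabs, Rab1b and Rab43 stood closer to 0 on their brighter spot than on their dimmer one. Rab1b, which acts between ER and Golgi, read 0.16, 0.00 and 0.14 (SE 0.10) on its bright spot and 0.95, -0.58 and 0.80 (SE 0.47) on its dim one. Rab1a read -0.33, -0.08 and -0.21 (SE 0.30), and Rab6a, of the Golgi, 0.09, -0.06 and -0.11 (SE 0.31). Rab43 read 0.15, 0.14 and 0.01 (SE 0.17) on its brighter spot and -0.80, 0.34 and 0.40 (SE 0.46) on the other.

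Late endosome and lysosome Rabs gave medians of 0.01, 0.02 and 0.12 over 6 spots. Rab7, which brings late endosomes to the lysosome, read 0.22, 0.02 and -0.12 (SE 0.10) on its brighter spot and -0.24, -0.84 and 0.28 (SE 0.52) on the other. Rab24, linked to autophagy, read -0.08, -0.64, -0.74 and -0.70 at 24 h, for -0.54 (SE 0.21, adjusted p = 0.320), and its signal-to-noise score was 0.88. Rab29 read 0.45, 0.17, 0.15 and 0.37 at 24 h, for 0.29 (SE 0.12, adjusted p = 0.370). Rab9, which acts in transport from late endosomes to the Golgi, read 0.18, 0.46 and -0.04 (SE 0.30). Of the Rabs of regulated secretion, Rab27a read -0.67, -0.33, -0.10 and -0.87 at 24 h, for -0.49 (SE 0.18, adjusted p = 0.307). Rab27b read 0.39 (SE 0.19) at that time.

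COPII coat genes were measured on 10 spots of 7 genes, with medians of -0.04, -0.01 and -0.04. Sec13, a subunit of the outer cage and of the nuclear pore, read -0.75, -0.72, -0.36 and -0.28 at 6 h, for -0.53 (SE 0.16, adjusted p = 0.542), or 1.44-fold lower. Sec31a, its partner in the cage, read -0.47, -0.41, -0.12 and -0.19 at 6 h on its dimmer spot, for -0.30 (SE 0.16). Its brighter spot gave -0.04, -0.02 and -0.03 (SE 0.10) at the 3 times. At 24 h the dimmer Sec31a spot stood at -0.41 (SE 0.16, adjusted p = 0.319) and Sec13 at -0.32. The cargo-binding Sec24 subunits went separate ways: Sec24c read -0.56 (SE 0.23, adjusted p = 0.352) at 24 h, Sec24b 0.70 (SE 0.28, adjusted p = 0.563) at 12 h on 1 spot and 0.73 (SE 0.59) on its dimmer one, and Sec24a between -0.10 and 0.19 on both of its spots. Sec23a, the GTPase-activating subunit, read -0.26, -0.14 and 0.20 (SE 0.25).

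The COPI coat was represented by 5 genes on 7 spots, and Copa had no measured spot. Their medians were -0.25, 0.07 and 0.12. Arcn1, the delta subunit, read 0.15, 0.23 and 0.13 (SE 0.10) on its brightest spot, with 11 of 12 arrays above 0, against -0.32, 0.07 and 0.27 (SE 0.17) and 0.20, -0.38 and 0.01 (SE 0.30) on its other spots. Cope, the epsilon subunit, read 0.33, 0.91, 1.06 and 0.47 at 24 h, for 0.69 (SE 0.27, adjusted p = 0.320), beside -0.43 at 6 h and 0.02 at 12 h. Copb2 read -0.25, 0.33 and 0.12 (SE 0.27), Copg2 0.22, 0.36 and -0.10 (SE 0.24), and Copg1 -0.56, 0.06 and -0.64 with an SE of 0.73.

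The ARF GTPases, which load the COPI coat onto membranes, were measured on 5 spots of 4 genes. The spots of Arf1 had like signs: they read -0.08 and -0.18 at 6 h, -0.22 and -0.14 at 12 h, and 0.24 and 0.21 at 24 h. Their values over the 12 arrays correlated at 0.19. On the first spot, 24 h minus 12 h was 0.46 (SE 0.17, adjusted p = 0.474). Arf6, which acts at the plasma membrane, read 0.12, 0.16 and 0.21 (SE 0.11), with 11 of 12 arrays above 0. Arf3 read -0.01, 0.47 and 0.24 (SE 0.26), and Arf2, which humans lack, -0.10, -0.34 and -0.07 (SE 0.36).

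The ESCRT machinery, which buds vesicles into the endosome, gave 6 spots of 5 genes with medians of 0.14, 0.14 and 0.09. Vps25 of ESCRT-II read 1.36, 0.06, 1.59 and 0.10 at 6 h, for 0.78 (SE 0.28, adjusted p = 0.692), and its arrays F1 and R1 stood far above F2 and R2. Vps28 of ESCRT-I read 0.19, 0.28 and 0.14 (SE 0.20), and Vps4b, the ATPase that takes the complex apart, 0.01, 0.37 and -0.02 (SE 0.18). Vps37a read 0.28, 0.34, 0.37 and 0.52 at 12 h on 1 spot, for 0.38 (SE 0.16). Its other spot read -1.33 (SE 0.70) there, with array R1 at -4.54. The tethering complexes HOPS and CORVET, which prepare fusion with late and early endosomes, gave medians of -0.09, 0.06 and 0.06 over 5 spots. Their bright Vps39 spot stood at -0.19, -0.04 and -0.02 (SE 0.11), and Vps16 at -0.09, 0.11 and 0.06 (SE 0.19). Vps51, of the GARP tether at the Golgi, read 0.20, 0.24 and -0.09 (SE 0.12).

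Sec14l4, a lipid-binding protein that carries a trafficking symbol only by its likeness to yeast Sec14, was lower on all 8 arrays of 12 h and 24 h. It read -1.98, -0.76, -0.65 and -0.41 at 12 h and -0.92, -0.45, -1.14 and -0.79 at 24 h. The ratios were -0.95 (SE 0.28, adjusted p = 0.377) and -0.83 (SE 0.28, adjusted p = 0.266), or 1.93-fold and 1.77-fold lower. With a normexp background correction they shrank to -0.14 and -0.35. At 6 h it read 0.99 on array F1 and between -0.24 and -0.15 on the others. Sec14l2 and Sec14l1 kept between -0.25 and 0.10 at every time.

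Translocon genes read apart from each other. Sec61a1, the channel through which secretory proteins enter the ER, read -0.02, -2.11, -0.11 and -0.27 at 12 h and 0.98, 1.36, -0.04 and 0.75 at 24 h. The ratios were -0.63 (SE 0.34) and 0.76 (SE 0.34, adjusted p = 0.372), and their difference was 1.39 (SE 0.47, adjusted p = 0.439). Array F2 of 12 h stood far below the others. Sec61b read -0.01, -0.05 and -0.22 (SE 0.27) and Sec62 -0.16, 0.26 and -0.13 (SE 0.24). Sec22b, an ER-to-Golgi SNARE, read 0.01, -0.19 and -0.16 (SE 0.11) on its brighter spot and -0.21, -0.13 and -0.03 (SE 0.12) on the other.

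Spots that the annotation gives to the same gene agreed little. The 22 genes with several measured spots gave 26 pairs, of which 16, 13 and 15 had the same sign at 6 h, 12 h and 24 h, and 4 had it at all 3 times. Those 4 were the pairs of Arf1, Rab18 and Snx21 and 1 pair of Rab10 spots. The ratios of a pair differed by a median of 0.23, 0.31 and 0.24. Over the 12 arrays the correlation within a pair, given as a description, had a median of 0.02 and ran from -0.48 to 0.67. It was 0.19 for Arf1, 0.03 for Snx21, 0.004 for Rab18 and -0.08 for that Rab10 pair. Like signs at all 3 times thus went with little agreement from array to array. The names themselves depend on a block order that was worked out from the data. Over 3118 pairs of spots of the same gene on the whole array, that order gave a correlation of 0.21 in mean intensity and 0.31 in the dye effect. The numbering as deposited gave -0.0007 and 0.01 over 2712 such pairs. Over the 26 trafficking pairs the values were -0.11 and -0.02 in the inferred order, and 0.21 and 0.15 over 37 pairs in the deposited one. The brightness and dye effect of the trafficking spots thus gave no backing of their own to the names, and each value above holds for the spot first and for the gene as far as the order is right.

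**Figure D4:**
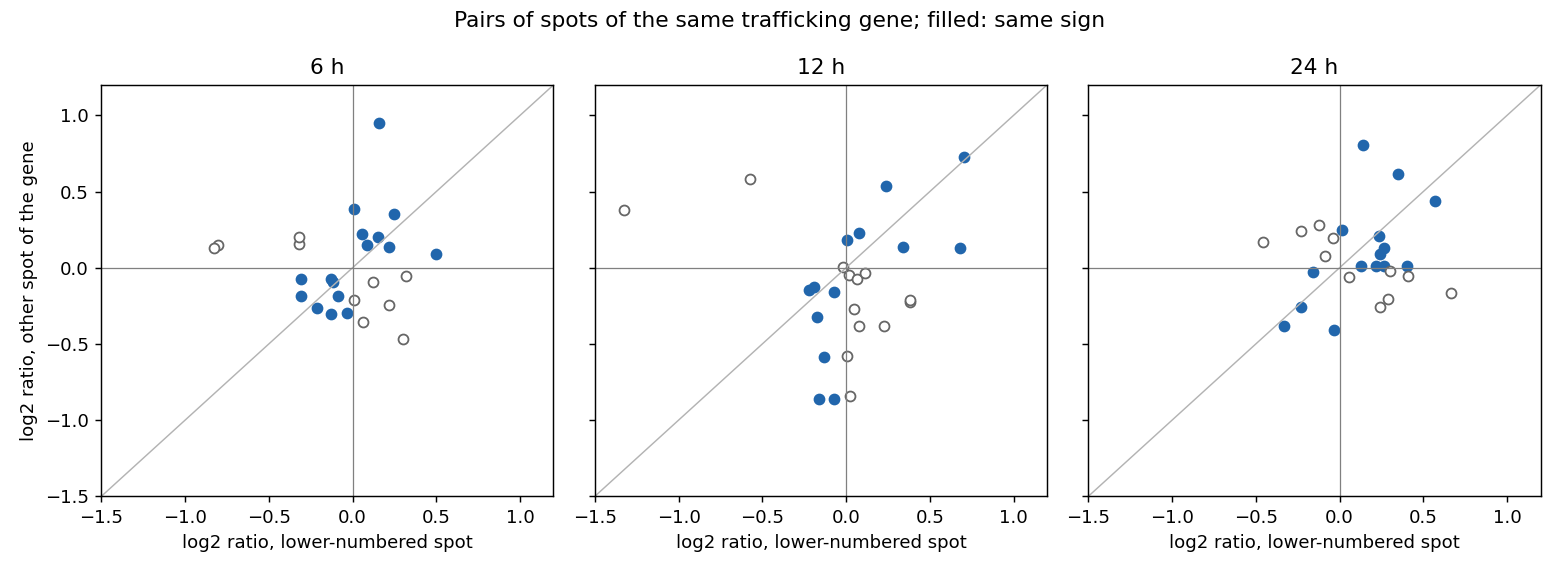
Log2 ratios of the 26 pairs of spots that share a trafficking gene, the lower-numbered spot on the x axis and the other on the y axis, at 6 h, 12 h and 24 h. Filled points have the same sign on both spots (16, 13 and 15 pairs), and the diagonal marks equal ratios.

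Genes of neighbouring steps were set beside the members from lists by function. Of 32 spots for clathrin and its adaptors, 17 for SNAREs and their handlers, 14 for other ESCRT proteins and 52 for regulators of Rab and ARF, 0 were called at any time. Over the 3 times together, an unadjusted p under 0.05 was reached by 11.5% of the spot-and-time values for clathrin and adaptors, 5.88% for SNAREs, 2.38% for other ESCRT proteins and 10.3% for the regulators, against 9.34% of the values of all spots. Among 37 spots for cargo receptors of the early secretory path 1 was called, at 24 h, where 0.477% of all spots were. It was Tmed3, a p24 cargo receptor, which read 0.59 (SE 0.10, adjusted p = 0.0462), and its signal-to-noise score was 185. Of the list's values over the 3 times, 8.11% had an unadjusted p under 0.05, against 9.34% for all spots. Of 40 spots for lysosomal proteins 0 were called. Of their values over the 3 times, 10.8% had an unadjusted p under 0.05, against 9.34% for all spots. At that level 1 of the 40 was higher and 1 lower at 6 h. At 12 h 5 were higher and 0 lower, and at 24 h 6 were higher and 0 lower, where 4.76% and 5.93% of all spots were higher. At 24 h clathrin and adaptors gave 1 higher and 5 lower of 32 spots, and the regulators 3 higher and 7 lower of 52. Of all spots, 5.93% were higher and 7.13% lower at that level and time. Of the 6 lysosomal spots at 24 h, named after their values were seen, the protease gene Ctsl read 0.58 and the cholesterol transporter gene Npc1 0.37. The other measured spot of each read 0.18 and 0.17. The proton pump subunit gene Atp6v1e1 read 0.40. The list's median was 0.08 at 12 h and 0.07 at 24 h.

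Signal over background limited the arrays as a whole. The median signal-to-noise score ran from 0.76 to 1.42 in Cy3 and from 0.47 to 1.34 in Cy5, and 9.66% to 24.5% of spots stood at 0, most on array F2 of 12 h. Hepatocyte markers, checked against the liver label, had a median score of 51.8 on their 6 measured spots, while 0 of 4 bile duct marker genes were measured. The hepatocyte spots ran from -0.331 to 0.757 at 6 h and from -0.358 to 0.605 at 24 h. The highest at 6 h, Tdo2, was called (adjusted p = 0.0438 in limma), where 0.102% of all spots were. At 12 h 4 of the 6 lay below 0, and the lowest, Apoa1, had an SE of 1.15. Kupffer cell and macrophage markers stood between -0.84 and -0.50 at 6 h and between 0.04 and 0.74 at 24 h on 3 spots, and the 1 erythroid marker spot at -0.81, 0.22 and 1.05. Markers of other leukocytes stood at -0.05 and 0.50 at 6 h and at -0.43 and -0.25 at 24 h, on 2 spots. Stellate cell markers ran from -0.54 to 0.10 at 6 h and from -0.08 to 0.29 at 24 h on 5 spots, and endothelial markers from -0.07 to 0.50 and from -0.09 to 0.16 on 3. Over the 3 times together, an unadjusted p under 0.05 was reached by 4 of 18 hepatocyte values (22.2%) and 3 of 9 Kupffer and macrophage values (33.3%). The same held for 3 of 6 values of other leukocytes, 1 of 3 erythroid, 1 of 15 stellate and 0 of 9 endothelial values. Among all spots the share was 9.34%, and the marker values are few. Whether the cell makeup had a part in the members' ratios was not tested.

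The members that were not measured stood at 0 in at least 1 dye on 1 or more arrays. They came to 88 spots, measured on a median of 10 arrays, and left 40 genes without a value in the fit. Among Rabs and their partners these were Rab3b, Rab3d, Rab4a, Rab8b, Rab13, Rab17, Rab19, Rab30, Rab32, Rab33b, Rab35, Rab36, Rab39b, Rab40c, Rab3il1, Rab3ip, Rab11fip1, Rab11fip3 and Rab11fip5. Among coat and translocon genes they were Copa, Sec16a, Sec23b, Sec24d and Sec63, and among nexins Snx8, Snx11, Snx13, Snx19, Snx27, Snx29 and Snx30. The Vps genes were Vps4a, Vps8, Vps18, Vps33a, Vps36, Vps37c, Vps50, Vps54 and Vps72. When spots measured on at least 3 of the 4 arrays of each time point were admitted, 42 spots and 22 of these genes were added. Of the 42 added spots 0 were called, and the smallest adjusted p was 0.215, while 5 had an unadjusted p under 0.05 at some time. That count takes in 3 tests a spot and has no share over all spots of the wider fit beside it. In the main fit 3.12% of all spots were higher and 3.24% lower at 6 h alone, and 5.93% and 7.13% at 24 h alone. The largest ratios of the 5 spots, named after their values were seen, were 2.60 for Snx27 at 12 h and -2.27 for a further Rab11fip2 spot at 24 h. Snx27 with the retromer returns receptors to the surface. The Rab11fip2 spot measured on all 12 arrays read 0.21, 0.12 and 0.05 at 6 h, 12 h and 24 h. For 18 genes no value was obtained.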

How the data were processed

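Spot intensities were extracted with ArrayVision 8.0 from images scanned with ImageQuant 5.0, per the series' design text. The deposited files held foreground, background and corrected intensity per dye, and ArrayVision's signal-to-noise score, with no formula stated. The authors' deposited log2 ratios came from LOWESS in Avadis 4, per the same text, and served as an alternative. Spots at 0 counted as missing. Ratios of Cy5 over Cy3 were taken to log2 and put through loess within each array, and limma 3.58.1 in R 4.3.3 fitted 1 sign-coded column per time point and a dye effect to 11749 spots, with 8 residual degrees of freedom. The script was tested on simulated data. An array value is the ratio turned to drug over vehicle less the spot's dye effect, a definition settled after the values were seen.

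Spots were paired with annotation by moving 48 blocks of 480 between row-wise and column-wise order of a grid of 12 by 4. This placed Mt1 at spot 12998 and Mt2 at 9645. Members, lists and rules were chosen with earlier results of these data known. The rule for named spots took those with any call and the 6 largest in each direction of 1 sign on all 4 arrays per time. It also took every spot of a gene with several, all COPI and ARF spots, and the 5 with the highest signal-to-noise score. Not all of these are described above. Left out were, among others, Rab23 (-0.54) and Snx22 (-0.35) at 6 h, Vps13b (-0.32) at 24 h, both Snx14 spots and the second spots of Vps11 and Sec22a. Further spots with an unadjusted p under 0.05, and others described by role, were named after their values were seen. RefSeq symbols and promoters were of GRCm38.p6, and all 120 genes were matched. Alternatives changed background, normalization, filters, dye effect, pairing, numbering and the arrays used.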

Additional observations from a re-analysis of the deposited data

Results flagged for a closer look

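Values of the named spots were looked at in 228 groups of 4 arrays, and in 11 of them 1 array lay apart from the other 3 by Dixon's ratio. Chance sets about 1 in 20 such groups apart, which is about the share seen here. Array F2 of 12 h, the array with the most spots at 0, held 4 of the 11. On it Sec61a1 read -2.11 where the other arrays ran from -0.267 to -0.015, and Sec22a on its first spot read -1.57 against 0.234 to 0.485. Rab3gap2 read 1.98 there against 0.0502 to 0.292, and Sec31a on its second spot 0.26 against -0.0989 to -0.0512.

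The arrays labelled F1, a different array at each time, held another 4 between them. At 6 h Sec14l4 read 0.988 on F1 against -0.239 to -0.147, and Vps13a 0.514 against 0.00401 to 0.0523. At 12 h Sec13 read -0.395 against -0.0306 to 0.0394, and at 24 h Rab24 read -0.0769 against -0.737 to -0.641. On the arrays labelled R2, Arf3 read 0.892 at 24 h against -0.0685 to 0.0919, and Rab5a -0.151 at 12 h against 0.176 to 0.238. On array R1, the first Vps11 spot read 0.242 at 24 h against -0.234 to -0.172. The cause of these values was not tested.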

How the results depend on the processing

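The count of called trafficking spots was 0 in each test in every fit that left out 1 array. Without background correction 1 spot passed at 6 h, 1 for 12 h minus 6 h, 1 for 24 h minus 6 h and 1 in the joint test, Vps26b each time (adjusted p = 0.0213, 0.0480, 0.0111 and 0.0148 in limma). Named by the deposited numbering, 1 spot passed at 6 h, 1 at 12 h, 1 at 24 h, 1 for 12 h minus 6 h and 3 in the joint test. These carried the names Rab3gap1, Sec24c and Snx5, and the first of them is Fga in the renumbered order. Under the other alternatives the counts stayed at 0, with at least 3 of 4 arrays per time point required (146 spots) and with the array number as a replicate block included. Some of these fits called 0 of all spots, so that the members' 0 was fixed there: each time point fitted alone, the averaged dye-swap pairs in every test but 12 h (9 called), normexp at 12 h and for 24 h minus 12 h, the fit with no dye effect for 24 h minus 12 h, and 24 h minus 6 h without R1 of 12 h, F2 of 24 h, or F2, R1 or R2 of 6 h. Arrays of 1 label at different times correlated at -0.22 to -0.08 in their residual values. Arrays of the same dye orientation but the other number ran from -0.18 to -0.07. The dye effect shared in the fit by itself makes such residuals correlate negatively, so these values cannot show whether the numbers pair arrays.

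The members' median at 24 h was 0.0583 with median centring. With 1 array left out it ran from -0.0173 to 0.0310 at 24 h and from -0.0570 to 0.0577 at 12 h, lowest without R1 of 12 h and without F2 of 24 h. Of 225 values of 75 named spots, 111 kept their sign under every alternative run, and 1 was called under any. Spot 3 of Rab10 at 12 h ran from -1.05 to -0.25, Sec13 at 6 h from -0.62 to -0.25 and Vps25 at 6 h from 0.11 to 1.05. The cause was not tested. Spots under a signal-to-noise score of 1, 17 of the 104, had little signal to measure a ratio from.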
